A study of Mus musculus with 27 samples.

Results

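Within the Dex group of a mouse liver series, the 3 arrays numbered 1 to 3 were set against the 6 numbered 4 to 9. The 3 were picked because they had been seen to carry a strong profile of glucocorticoid-induced genes. They are 3 of 9 Dex mice and 3 of 27 arrays in all. Because that choice came from the measured values, every difference between Dex 1-3 and Dex 4-9 below is a description, with no test and no p-value. Tests are given only for the same numbered split in the other groups, which the choice did not use.

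Each of the 27 arrays carried liver RNA of 1 mouse, and the mice form 3 groups of 9: Con, Veh and Dex. The names are used as the labels write them, since the labels do not spell them out. All 3 groups share the tissue and the preparation: RNA purified with Trizol and RNeasy columns, checked on a Bioanalyzer and labelled by the usual Affymetrix steps. The sources used here do not give strain, sex, age, genotype, agent, dose, time of treatment or time of day, nor what the number in a title stands for, so a number here only names a mouse.

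Glucocorticoids act through the glucocorticoid receptor, a transcription factor that moves to the nucleus when it binds hormone and attaches to DNA at glucocorticoid response elements. In liver it raises genes of amino acid breakdown and glucose output, metallothioneins, brakes on growth and inflammation, and its own feedback gene Fkbp5, a co-chaperone that lowers the receptor's affinity for hormone. At high doses, glucocorticoids are also known to raise drug-metabolising enzymes of the CYP2B and CYP3A families.

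Values are log2 of the deposited intensity, with readings under 2.6 set to that floor (1.38 on the log2 scale), and a difference of 1 is a doubling. Probes brighter than the middle probe of the array in 3 or more arrays were kept. That left 8001 probes and 5989 genes, each read from the kept probe with the highest mean. The arrays had been scaled alike, with trimmed means from 100.1 to 100.2. Hepatocyte genes were bright in every Dex array: albumin (Alb) ran from 13.87 to 15.22, transthyretin (Ttr) from 10.94 to 11.47, apolipoprotein Apoa1 from 13.75 to 15.29 and Cyp2e1 from 13.28 to 14.55, and none of these liver markers stood near the floor.

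Of the 4 genes given as marks of Dex 1-3, 3 separated the arrays without overlap. Fkbp5 read 11.53, 11.11 and 10.90 in Dex 1, 2 and 3, against 7.34, 6.73, 5.88, 6.86, 7.11 and 6.87 in Dex 4 to 9. The means were 11.18 ± 0.318 (SD, n = 3) and 6.80 ± 0.501 (SD, n = 6), a difference of 4.38 or 20.9-fold. The lowest of the 3 lay 3.56 above the highest of the 6, and also above every Veh array (5.05 to 7.95) and every Con array (5.43 to 8.13).

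Tat, tyrosine aminotransferase, read 13.94, 13.90 and 13.50 against 12.46, 11.81, 12.07, 11.84, 11.54 and 12.09, a difference of 1.81. Cyp2b10, a cytochrome P450 that metabolises drugs and is the usual readout of the receptor CAR, read 12.34, 11.80 and 12.30 against 7.06, 9.74, 8.23, 6.85, 8.49 and 7.05, a difference of 4.24. Both genes were higher in each of Dex 1-3 than in any of the other 24 arrays, but Cyp2b10 was far from even among Dex 4-9, with Dex 5 highest and Dex 7 lowest.

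Lcn2, lipocalin 2, an iron-binding protein of the acute phase and of neutrophils, did not separate the sets. It read 11.97, 12.91 and 10.60 in Dex 1 to 3 and 11.90, 11.40, 10.56, 8.18, 8.32 and 7.70 in Dex 4 to 9. Dex 4 and Dex 5 lay above Dex 3, and Dex 7, 8 and 9 formed the low end. The mean difference was 2.15, with SDs of 1.16 (n = 3) and 1.83 (n = 6), and a second Lcn2 probe differed by -0.06. Given as a mark of Dex 1-3, Lcn2 was thus high in Dex 4 and Dex 5 too.

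**Figure D1:**
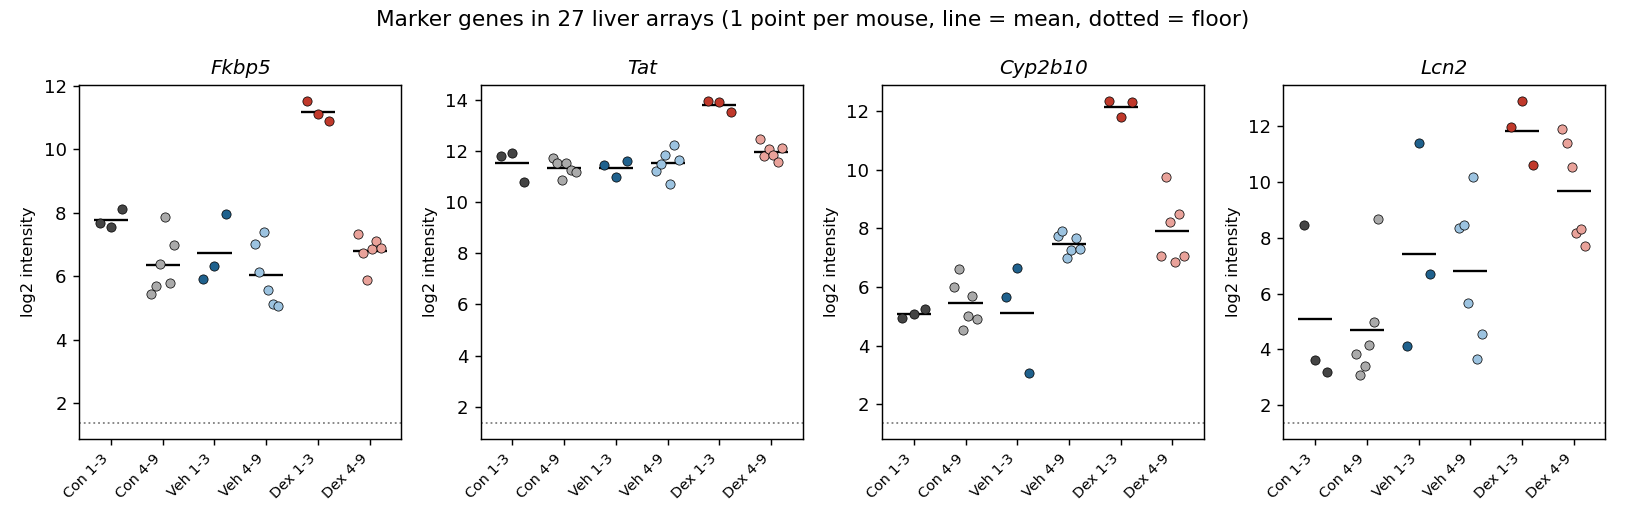
Points are the log2 intensity of Fkbp5, Tat, Cyp2b10 and Lcn2 in each of the 27 arrays, by group and by number 1-3 or 4-9. Fkbp5, Tat and Cyp2b10 stand above all other arrays in Dex 1-3, while Lcn2 in Dex 4 (11.90) and Dex 5 (11.40) lies above Dex 3 (10.60).

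Over all kept probes, 108 were higher and 146 lower in Dex 1-3 by at least 1 log2 with no overlap between the 3 and the 6 arrays. These are 1.35% and 1.82% of 8001 probes, 3.17% together, and nothing is read from them because the choice of arrays used this contrast. By gene, 87 were higher (1.45%) and 112 lower (1.87%). The median difference was 1.63 for the higher probes and -1.41 for the lower ones, and 38 and 25 of them differed by 2 or more. Over all probes the median difference was -0.11. Quantile normalization, which brought that median to -0.02, turned the split to 140 higher and 113 lower.

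Both sets were also placed against the Veh mice. The mean of Dex 4-9 lay within the range of the 9 Veh arrays for 99 of the 108 higher probes and 136 of the 146 lower ones. The mean of Dex 1-3 lay within it for 24 and 35. The same counts were not made over all probes. These probes were picked because Dex 1-3 lay apart from Dex 4-9, so nothing is read from the counts. For 58 genes (0.968%) Dex 1-3 lay above all 24 other arrays, and for 61 (1.02%) below all of them.

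The genes furthest above Dex 4-9 without overlap are given first. Cdkn1a, the cyclin-dependent kinase inhibitor p21, read 9.34, 9.01 and 9.73 against 3.34 to 5.20 in Dex 4-9 (median 4.84), a difference of 4.76, and its second probe differed by 4.17. Gadd45b, a growth-arrest and DNA-damage gene, read 8.83, 7.26 and 8.61 against 2.35 to 4.72 (median 3.54), a difference of 4.69, with 5.31 at its second probe. Both genes lay above all 24 other arrays in each of Dex 1-3, and none of Dex 4-9 had Gadd45b above its array's median.

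Gadd45a, of the same family, differed by -0.84 with overlap. Gadd45g, another member, read 7.58, 10.58 and 8.28 against 4.71 to 6.21, a difference of 3.25. Igfbp1, a secreted binding protein for insulin-like growth factors that insulin represses, had the largest difference of the genes that did not overlap, 4.92, and was also the least even: 9.83, 12.01 and 6.71 in Dex 1 to 3 against 4.08 to 5.04. The lowest of the 3, Dex 3, lay 1.67 above the highest of the 6. A second Igfbp1 probe did not pass the filter on dim probes and differed by 0.08.

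Metallothioneins Mt1 and Mt2 are small metal-binding proteins raised by glucocorticoids, metals and inflammation. Mt2 read 13.69, 14.68 and 13.38 against 12.18, 8.05, 9.45, 9.56, 9.64 and 9.13, a difference of 4.25. Mt1 read 13.50, 14.43 and 12.89 against 12.27, 7.70, 8.83, 8.81, 10.41 and 9.13, a difference of 4.08. Dex 4 came within 0.62 of the lowest of the 3 arrays for Mt1 and within 1.20 for Mt2, the other Dex arrays lying well below. High Mt1 also occurred outside the Dex group, at 12.73 in Veh 2, 11.88 in Veh 3 and 12.23 in Con 1, and probes of such close relatives may share signal.

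The remaining leading genes spanned several roles. Lpin1, a phosphatidate phosphatase and co-activator of fat oxidation genes, read 9.74, 10.30 and 10.51 against 5.81 to 7.86, a difference of 3.43. Retreg1, a receptor for turnover of the endoplasmic reticulum, was higher by 3.90 and Susd6 by 2.98. Nnmt, nicotinamide N-methyltransferase, was higher by 3.04 and Il1r1, the interleukin-1 receptor, by 3.03. Among genes of signalling and transport named after their values were seen, Rgs16, a regulator of G-protein signalling, was higher by 2.82, St3gal5, a sialyltransferase, by 2.55, Upp2, a uridine phosphorylase, by 2.53, and Actg1, cytoplasmic actin, by 2.38.

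**Figure D2:**
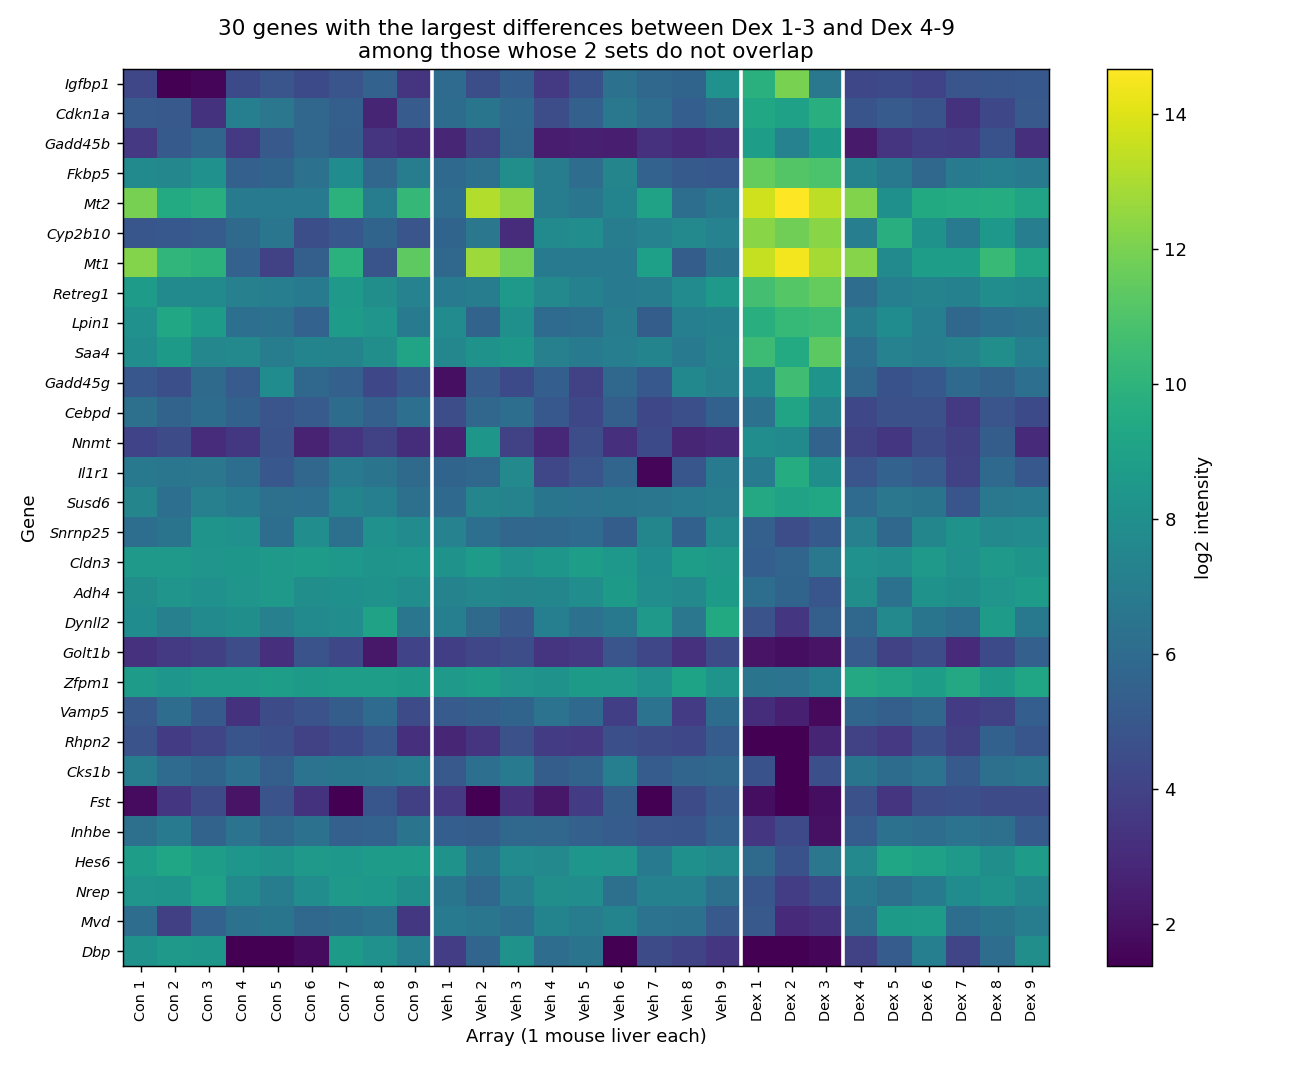
Colour is the log2 intensity of the 15 genes most above and the 15 most below Dex 4-9 among those without overlap, one row per gene and one column per array, with white lines between Con, Veh, Dex 1-3 and Dex 4-9. Mt1 and Mt2 are also bright in Veh 2 (12.73 for Mt1) and Dex 4 (12.27), and Dbp is also dark in Con 4, 5 and 6.

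The sequence just before the start of 3 of these genes is shown because they are the marker with the largest difference and the neighbouring metallothionein pair that separated together. Each is the 250 bases before the gene's start in RefSeq on GRCm38.p6, printed 5′ to 3′ on the gene's strand: Fkbp5 at chr17:28486150-28486399 on the minus strand, Mt1 at chr8:94178839-94179088 and Mt2 at chr8:94172368-94172617, both on the plus strand. Capitals mark a match on either strand to the palindromic form of the glucocorticoid response element, the half-sites GNACA and TGTNC with 3 bases between them.
Fkbp5: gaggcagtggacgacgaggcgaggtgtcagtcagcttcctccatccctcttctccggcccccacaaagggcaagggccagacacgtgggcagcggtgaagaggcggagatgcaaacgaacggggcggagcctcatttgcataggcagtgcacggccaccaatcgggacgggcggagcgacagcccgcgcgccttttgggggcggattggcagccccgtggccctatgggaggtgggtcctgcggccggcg
Mt1: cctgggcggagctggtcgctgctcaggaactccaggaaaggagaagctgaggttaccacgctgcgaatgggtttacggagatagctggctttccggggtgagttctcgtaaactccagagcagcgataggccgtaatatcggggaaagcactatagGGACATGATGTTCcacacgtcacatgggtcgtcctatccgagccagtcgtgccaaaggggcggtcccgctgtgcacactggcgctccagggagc
Mt2: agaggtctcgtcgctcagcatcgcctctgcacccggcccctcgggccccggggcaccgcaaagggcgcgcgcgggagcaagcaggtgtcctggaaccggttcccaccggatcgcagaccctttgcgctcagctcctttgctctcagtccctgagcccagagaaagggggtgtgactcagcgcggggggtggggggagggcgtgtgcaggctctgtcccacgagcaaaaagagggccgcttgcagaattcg
Mt1 held one match, GGACATGATGTTC, from 94 to 82 bases before its start, and neither of the other windows held these letters. Of all 32851 windows in the table, 127 held the motif (0.387%), as did 16 of the 4801 measured genes that had a window (0.333%). It was found in 1 of 69 genes higher in Dex 1-3 (Mt1) and in 1 of 98 lower ones (Hsd3b6). A match is a description of letters, and elements further from the start were not searched.

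Of 32 glucocorticoid-induced genes in a list drawn up with these results known, 30 were measured and 16 were higher in Dex 1-3 without overlap. None was lower, and the background over all genes, against which each list count below stands, was 2.19% higher and 3.04% lower. The median difference of the list was 1.47 against -0.10 for all genes, and 13 members lay above all 24 other arrays. Since the 3 arrays were chosen on this profile, the count repeats the choice. For the same numbers the list median was 0.09 in Veh and 0.30 in Con, beside -0.03 and -0.01 for all genes. The mean level of the list's genes was 9.05, 8.94 and 9.14 in Dex 1 to 3 and 7.08 to 7.67 in Dex 4 to 9, and Dex 4 and Dex 8 were the highest of the 6.

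Members beyond those already given included transcription factors and signalling brakes. Cebpd, a factor of the acute phase, read 6.41, 9.16 and 7.31 against 3.62 to 4.86, a difference of 3.22. Its relative Cebpb differed by 2.04 and lay above all 24 other arrays. Zbtb16, a zinc-finger repressor, was higher by 2.91, Ddit4, an inhibitor of mTOR signalling, by 2.68, Klf9, a Krüppel-like factor, by 1.19, Errfi1, an inhibitor of the EGF receptor, by 1.24, and Nfkbia, the inhibitor of NF-κB, by 1.03. The fat-handling secreted protein Angptl4 was higher by 1.20. Second probes of Klf9 (0.51) and Nfkbia (0.64) and 1 of Angptl4 (0.45) overlapped. So did probes of Zbtb16 (1.18) and Angptl4 (-0.57) that did not pass the filter on dim probes.

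Other genes usually induced by glucocorticoids did not separate. Tsc22d3, which encodes the anti-inflammatory protein GILZ, read 3.07, 2.65 and 3.23 against 3.15 to 4.74, a difference of -1.15. It was dim, below the median intensity of its array in each of Dex 1-3, so this value is uncertain. Per1 differed by 1.20, Sgk1 by 1.94 and Dusp1 by 1.86, each with overlap. Pck1 and G6pc, enzymes of glucose output, differed by 1.45 and -1.47 and overlapped too. The G6pc value rested on Dex 2, at 7.01 beside 10.82 and 10.84 in Dex 1 and 3, and was -0.19 without it.

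Among genes under the drug receptors CAR and PXR, Cyp2b10 was the only one of 19 measured members to separate. None was lower, and the list median was 0.15. Cyp3a11, the usual PXR readout, differed by -0.02. The close Cyp2b relatives Cyp2b9 and Cyp2b13, whose sequences may share signal with Cyp2b10 probes, differed by 0.65 and 0.15 and overlapped.

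Acute phase genes are made by hepatocytes in inflammation. Of 23 measured, 22 had a mean difference above 0, as did 2449 of all 5989 genes, and 2 were higher without overlap. The list median was 0.54 in Dex. For the same numbers it was 0.31 in Veh and 0.16 in Con. Saa4, a serum amyloid A carried on lipoproteins, read 10.47, 9.52 and 11.31 against 6.24 to 7.97, a difference of 3.27. Lbp, which binds bacterial lipopolysaccharide, was higher by 1.87. Serpina3n differed by 1.50 with overlap, since Dex 4 read 13.03 beside 12.83 and 12.62 in Dex 1 and 3. The Dex median of the list was 0.19 without Dex 2 and 0.89 without Dex 3.

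Of inflammatory signalling genes named after their values were seen, Il6ra, the interleukin-6 receptor, was higher by 2.11, Jun, a subunit of AP-1, by 2.56, and Zfp36, which breaks down inflammatory mRNAs, by 1.86. Beside these, the neutrophil list (6 measured, Lcn2 among them) had a median difference of 0.65 with no member separating. S100a8 and S100a9 differed by 1.43 and 1.02, Camp by 0.27, Elane by -0.16 and Ltf by -0.67. The mean level of the neutrophil list was 5.97 to 6.62 in Dex 1-3, 4.92 to 6.20 in Dex 4-9 and 3.54 to 5.60 in Veh. The part of neutrophils in the differences was not tested. In whole liver, fewer cells of a type and less RNA per cell cannot be told apart.

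Of 14 measured enzymes of amino acid breakdown, 3 were higher without overlap and 1 lower (all genes: 2.19% higher, 3.04% lower), with a median of 0.21. Of the 3, Tat and Tdo2 are also on the glucocorticoid list. Tdo2, which opens the tryptophan ring, read 14.25, 14.47 and 14.22 against 12.46 to 13.09, a difference of 1.50. Aass, the first enzyme of lysine breakdown, read 11.40, 11.81 and 11.10 against 8.45 to 9.02, a difference of 2.78. Gatm, which makes the precursor of creatine, was lower by 1.22 and lay below all 24 other arrays.

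Among 8 urea cycle and nitrogen genes, 1 separated: Slc25a15, the mitochondrial ornithine carrier, read 12.24, 10.78 and 12.30 against 9.53 to 10.70. Its difference was 1.72, and Dex 2 lay just above Dex 6. The other 7 members overlapped, and the list median was 0.60. Of 14 gluconeogenesis and insulin-response genes, 2 were higher (Igfbp1 and Cebpb) and 1 lower (Slc2a2, the hepatocyte glucose transporter, by -0.95), with a median of -0.38.

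**Figure D3:**
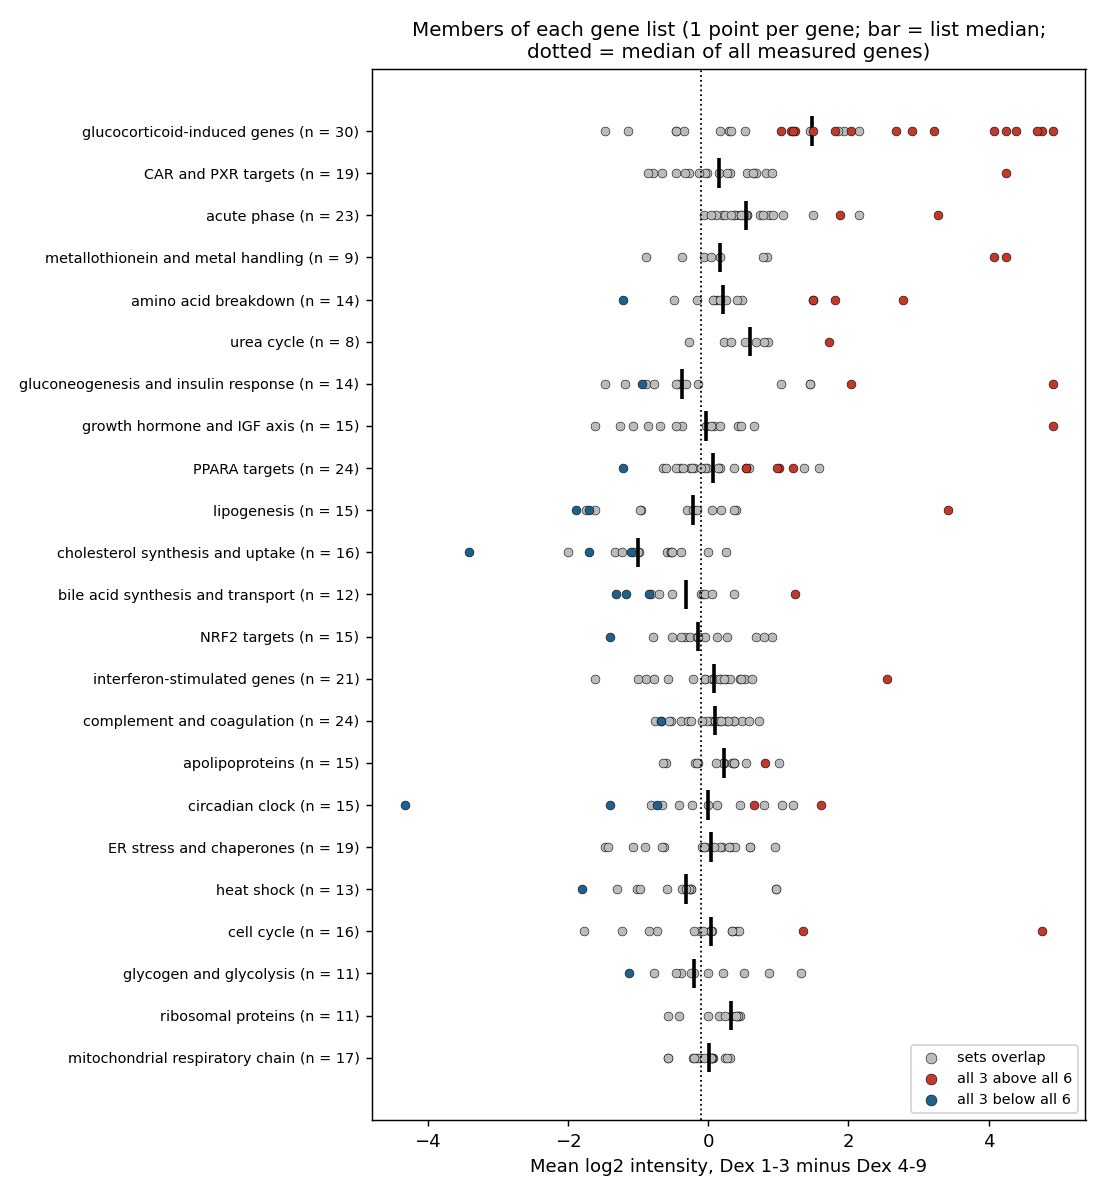
Each point is 1 gene, placed by its mean log2 difference, Dex 1-3 minus Dex 4-9, within its list; red and blue points are genes whose 3 arrays lie all above or all below the 6, and bars are list medians. The glucocorticoid list sits highest (median 1.47, 16 of 30 red) and the cholesterol list lowest (median -1.0, 3 of 16 blue).

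The gene that lay furthest below Dex 4-9 without overlap was Dbp, a clock-output transcription factor whose mRNA swings strongly over the day. It read 1.38, 1.38 and 1.54 in Dex 1 to 3, the first 2 at the floor, and 4.01, 5.23, 7.11, 4.18, 6.12 and 7.92 in Dex 4 to 9. The difference of -4.33 therefore depends on where the floor was set. Dbp was as low in arrays outside the Dex group, at 1.38, 1.38 and 1.77 in Con 4, 5 and 6 and 1.38 in Veh 6, while Con 1, 2 and 3 read 8.18, 8.52 and 8.44.

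Of 15 clock genes measured, 3 were lower and 2 higher without overlap (all genes: 2.19% higher, 3.04% lower), and the list median was -0.01. Nr1d1, the repressor REV-ERB alpha, read 4.85, 5.26 and 5.80 against 5.88 to 7.40, a difference of -1.41. Tef, a close relative of Dbp, was lower by 0.73. Arntl, the clock activator BMAL1, was higher by 0.66 (5.26, 5.54 and 5.42 against 4.64 to 4.86). Nfil3, the repressor that opposes Dbp at shared sites, was higher by 1.60, though its second probe overlapped at 1.27. The sources used here give no time of day for any liver.

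Of 16 measured genes of cholesterol synthesis, 14 had a difference below 0, as did 3540 of all 5989 genes. Without overlap, 3 were lower and none was higher (all genes: 2.19% higher, 3.04% lower), and the median was -1.0. Mvd, which decarboxylates mevalonate, read 5.09, 3.02 and 3.31 against 6.30, 8.64, 8.65, 6.20, 6.52 and 7.03, a difference of -3.42. Hmgcs1, the synthase that opens the pathway, read 7.20, 6.94 and 6.56 against 7.28, 9.32, 10.04, 7.43, 9.14 and 8.39, a difference of -1.70 in which Dex 4 lay only 0.07 above Dex 1. Fdft1, squalene synthase, was lower by 1.11. Sc5d, Lss and Nsdhl differed by -2.0, -1.33 and -1.23 with overlap, and Sqle by 0.00.

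The list's mean level was 7.60, 7.23 and 7.11 in Dex 1 to 3 and 7.83 to 9.07 in Dex 4 to 9, with Dex 5 and Dex 6 highest. Veh arrays ran from 7.41 to 8.41 and Con arrays from 7.24 to 8.27. Dex 5 and 6 lay above every Veh and Con array on this measure, and Dex 2 and 3 lay below every one.

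The window before Hmgcs1 is shown because it holds a sterol-type element. It is chr13:119690101-119690350 on the plus strand of GRCm38.p6, from RefSeq, 5′ to 3′, and capitals mark a match on either strand to TCACNCCAC, a form of the site bound by SREBP.
Hmgcs1: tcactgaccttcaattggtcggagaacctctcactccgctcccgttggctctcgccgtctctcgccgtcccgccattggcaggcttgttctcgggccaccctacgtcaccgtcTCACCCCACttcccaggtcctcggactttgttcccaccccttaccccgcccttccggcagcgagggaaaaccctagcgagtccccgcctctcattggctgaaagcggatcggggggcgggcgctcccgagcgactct
The match, TCACCCCAC, ran from 137 to 129 bases before the start. The motif was in 346 of all 32851 windows (1.05%) and in 71 of the 4801 measured genes (1.48%). It was in 2 of 98 lower genes (Hmgcs1 and Paqr7) and in 1 of 69 higher ones (Trim46). Mvd and Fdft1 were not among the matches, though only 98 of the 112 lower genes had a window. Since the Hmgcs1 window was picked for its match, nothing is read from it.

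Genes of fat synthesis differed in both directions. Srebf1, which encodes the lipogenic factor SREBP-1, read 9.92, 8.28 and 8.58 against 10.33 to 11.10, a difference of -1.70. Gpam, the first acyltransferase of triglyceride synthesis, was lower by 1.89. Of 15 lipogenesis genes these 2 were lower without overlap and Lpin1 was higher, with a median of -0.21. That median depended on single arrays: it was -0.84 without Dex 1 and 0.44 without Dex 2. Plin2, the coat protein of lipid droplets, was lower by 1.21.

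PPARA is the nuclear receptor for fatty acids that raises their oxidation. Of 24 PPARA targets, 5 were higher without overlap, 1 (Plin2) was lower (all genes: 2.19% higher, 3.04% lower), and the median was 0.06. Acadm, the medium-chain dehydrogenase, was higher by 1.01, Eci2, an enoyl-CoA isomerase, by 0.98, and Cpt1a, which admits fatty acids to mitochondria, by 0.54. Cyp4a10 and Cyp4a14, the standard PPARA readouts, differed by 0.16 and 0.58 and overlapped.

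**Figure D4:**
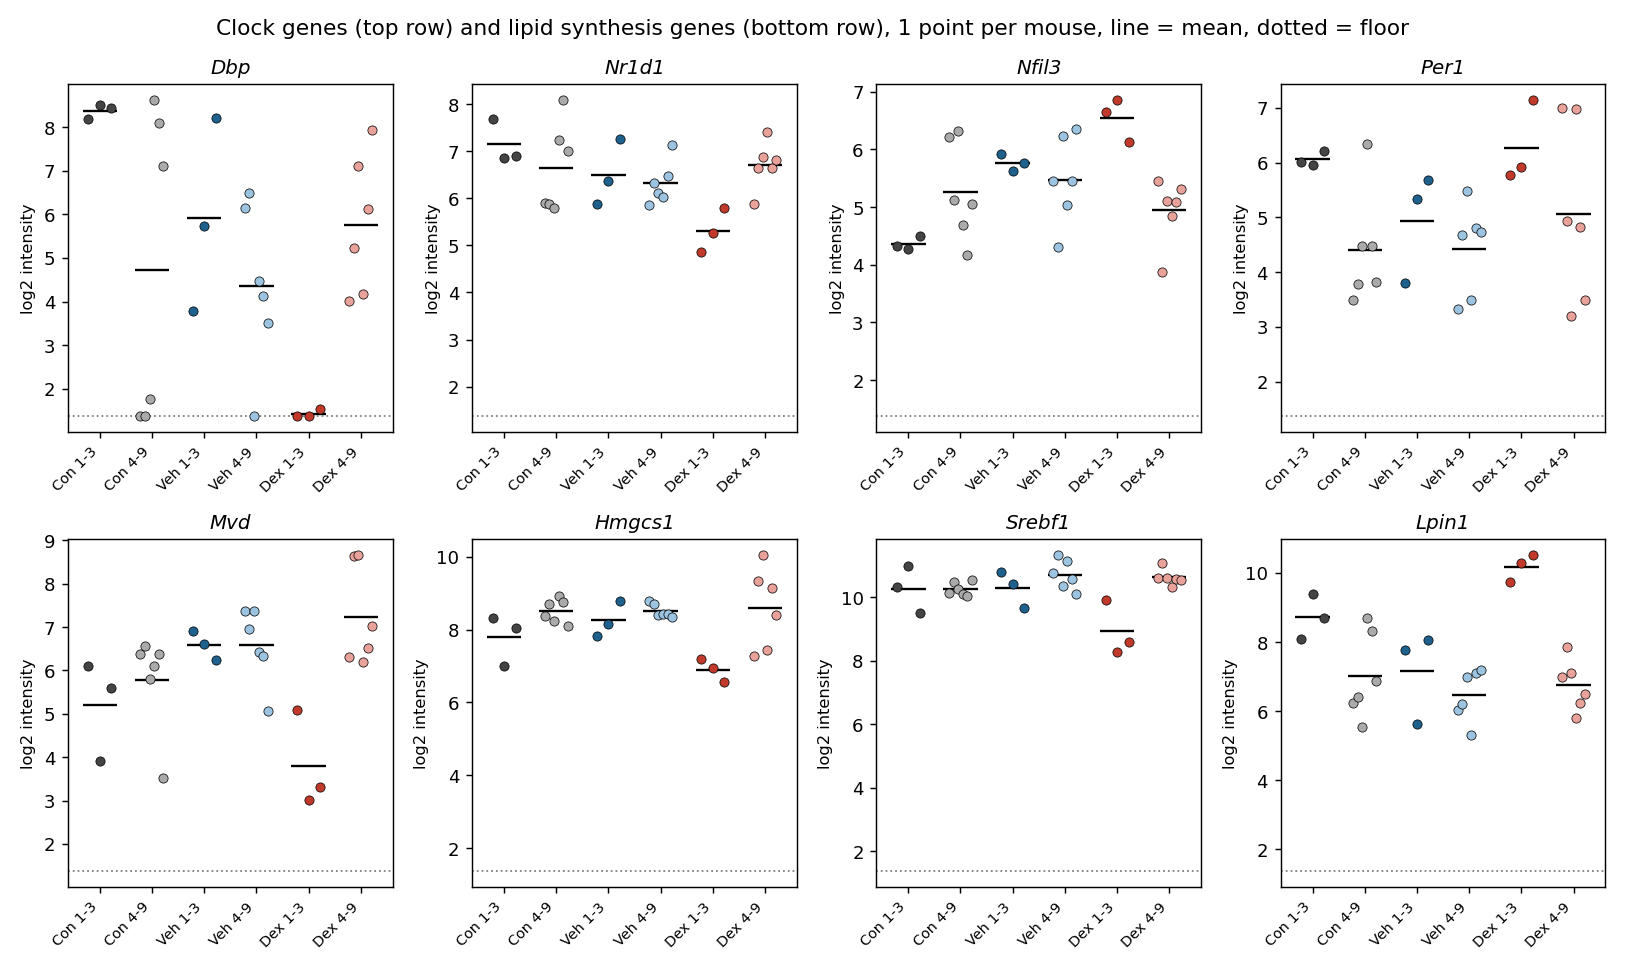
Points are log2 intensities of 4 clock and 4 lipid genes in each mouse, by group and number, with lines at the mean and a dotted line at the floor. Dbp stands at or near the floor in Dex 1-3, but also in Con 4, 5 and 6 and in Veh 6, and Per1 overlaps between the Dex sets.

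Of 12 bile acid genes, 3 were lower and 1 higher without overlap (all genes: 2.19% higher, 3.04% lower), with a median of -0.31. Nr0b2, the repressor SHP, was lower by 1.32, Hsd3b7, an early enzyme of bile acid synthesis, by 1.17, and Slc10a1, the bile salt uptake carrier NTCP, by 0.84. Amacr, a racemase of side-chain shortening, was higher by 1.23. Cyp7a1, the first enzyme of the main pathway, differed by 0.37 with overlap.

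Of the 15 genes furthest below Dex 4-9, Inhbe, the activin beta E subunit of hepatocytes, read 3.50, 4.34 and 2.0 against 5.14 to 6.46, a difference of -2.66. Fst, follistatin, which binds activins, read 1.89, 1.38 and 1.85 against 3.45 to 4.69, a difference of -2.65 close to the floor that became -1.90 with a higher floor. Outside these 15, 2 growth factor receptors were named after their values were seen. Fgfr4, the hepatocyte receptor of the bile acid signal FGF15, read 2.65, 3.50 and 3.88 against 4.75 to 6.09. Fgfr2 was lower by 1.33, with -0.96 and overlap at another probe.

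The next genes, apart from Cldn3, Krt18 and Kdr, were named after their values were seen. Cldn3, a tight junction claudin, read 5.37, 5.72 and 6.71 against 7.90 to 8.60, a difference of -2.31, with -1.55 at its second probe. Dsp, desmoplakin, was lower by 1.48, Lasp1, an actin-binding protein, by 2.10, and Krt18, a keratin of hepatocytes and bile duct cells, by 1.04. Plxnd1 and Nrp1, which receive semaphorin signals, were lower by 2.05 and 1.27 (a second Nrp1 probe overlapped at -1.07), and Kdr, the endothelial VEGF receptor, by 1.61. Lasp1, Dsp, Cldn3, Krt18, Plxnd1 and Nrp1 lay below all 24 other arrays, whereas Kdr did not.

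Regulators and enzymes completed the lower end. Zfpm1, the GATA cofactor FOG1, read 6.48, 6.44 and 7.11 against 8.64 to 9.43, a difference of -2.43. Hes6, a helix-loop-helix repressor, was lower by 2.73 and Cks1b, a subunit of cell cycle kinases, by 2.59. Adh4, an alcohol dehydrogenase, was lower by 2.32, and by 2.85 at its second probe. Nrep was lower by 2.91, Rhpn2 by 2.59, Vamp5 by 2.51, Golt1b by 2.40 and Snrnp25 by 2.31. Dynll2, a dynein light chain, was lower by 2.40 at 1 probe, while its other probe differed by 0.24 and overlapped. Rhpn2 is another value that turned on the floor, at -3.84 with a lower one.

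Adipor2 and Aqp9, both named after their values were seen, gave smaller but even differences. Adipor2, an adiponectin receptor, read 9.14, 8.59 and 9.40 against 10.02 to 10.86, and Aqp9, the glycerol channel, 7.54, 7.60 and 7.38 against 8.30 to 9.10. Both lay below all 24 other arrays. Gclm, the modifier subunit of glutathione synthesis, was lower by 1.41 and was the only one of 15 NRF2 targets to separate.

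Of 16 measured cell cycle genes, 2 were higher without overlap, Cdkn1a and Rrm2, the latter by 1.35, and the median was 0.04. Tk1, thymidine kinase, and Cks2, both named after their values were seen, were lower by 1.82 and 1.37, but a second Tk1 probe differed by 0.31 and overlapped. Heat shock genes had 11 of 13 differences below 0, beside 3540 of all 5989 genes, and a median of -0.32. Hspa1b, an inducible HSP70, separated by -1.80. Of 19 endoplasmic reticulum stress genes none separated, and the median was 0.05, or -0.44 without Dex 2.

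Sex-biased liver genes varied between mice within both sets. Hsd3b5, a male-biased liver enzyme, read 1.38, 2.79 and 7.41 against 9.38, 9.40, 8.46, 9.06, 5.20 and 9.40. The mean difference was -4.63, yet Dex 8 lay below Dex 3, so the sets overlapped. None of the 7 measured male-biased genes separated, and their median was -0.26, or 0.28 without Dex 1. The members apart from Hsd3b5 differed by -0.81 (Cyp7b1) to 0.29 (Serpina1e). Hsd3b5 was also low in 4 of 9 Veh arrays, at 2.63, 3.12, 6.12 and 2.38 in Veh 2, 4, 5 and 7. Of 5 female-biased genes, Cyp17a1 separated by 1.52, while its other probe, which did not pass the filter on dim probes, differed by -0.19. Within Dex the mean level of the female-biased list was highest in Dex 8 at 8.59 and Dex 1 at 7.54. Veh arrays reached 8.32.

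Marker lists of other cell types were read to see whether cell content differed. None of the 15 macrophage, 7 B cell, 5 T and NK cell, 7 MHC class II, 6 red cell, 6 exocrine pancreas or 5 skeletal muscle genes separated. Of all genes only 2.19% were higher and 3.04% lower without overlap, so nothing is read from their absence in lists this short. Their median differences were 0.36, 0.25, 0.24, 0.47, -0.32, 0.33 and -0.32. The mean level of the macrophage list was 5.24 to 6.24 in Dex 1-3 and 5.07 to 6.14 in Dex 4-9. The B cell median was 0.68 without Dex 2 and -0.17 without Dex 3, that of T and NK cells 0.81 without Dex 1, and that of muscle 0.05 without Dex 3. Clec4f, a Kupffer cell lectin, read 8.46, 7.85 and 8.14 against 6.93 to 8.52. Of the 15 macrophage genes, 11 had a difference above 0 and 4 below, beside 2449 above and 3540 below of all 5989 genes. The macrophage median of 0.36 stood beside -0.10 for all genes. The largest differences on that list went both ways, with Marco at 1.55, Adgre1 at -1.40 and Msr1 at -0.95.

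The lists of structural cells held single separating genes (all genes: 2.19% higher, 3.04% lower). Kdr was 1 of 7 endothelial genes (median -0.25) and Krt18 1 of 4 bile duct genes (median -0.92). Lum, lumican of the matrix, was 1 of 9 stellate and fibroblast genes at -1.43 (median -0.34). Of the endothelial genes, 5 had a difference below 0 and 2 above, Cdh5 at 0.53 and Pecam1 at 0.27. Of all 5989 genes, 3540 lay below 0. The stellate median was 0.19 without Dex 1 and -0.84 without Dex 3, the endothelial one -0.71 without Dex 3, and the bile duct one -0.47 without Dex 1. Of 4 fat cell genes, Lep, leptin, was higher by 0.89 and Pnpla2, a triglyceride lipase, by 0.65. Lipe, hormone-sensitive lipase, differed by -1.72 and Adipoq, which encodes adiponectin, by 0.09, both with overlap, as did a second Lep probe at 0.50. The 6 hepatocyte genes had a median of 0.54, which was 0.10 after quantile normalization. The part of any cell type in the differences was not tested.

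The 3 mice also differed among themselves. Their median SD per probe was 0.541, against 0.558 in Dex 4-9. The array nearest to Dex 4-9 was Dex 1 for 39 of the 108 higher probes, Dex 2 for 43 and Dex 3 for 26, and for the 146 lower probes Dex 3 was nearest in 69. Igfbp1, Gadd45g and Cebpd were highest in Dex 2, while Saa4 and Zbtb16 were highest in Dex 3. Lbp and Igfbp1 were lowest of the 3 in Dex 3.

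Among Dex 4-9, the array nearest to Dex 1-3 was Dex 8 for 29 of the higher probes and Dex 7 for 3. On the lower side Dex 4 was nearest for 38 and Dex 6 for 11. The highest of the 6 was Dex 4 for Mt1, Mt2, Lcn2 and Serpina3n, and Dex 5 for Cyp2b10 and Rgs16 (9.33).

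Whole profiles were compared next. Spearman correlations across the 8001 kept probes, which share scaling and abundance, were 0.847 to 0.862 within Dex 1-3, 0.806 to 0.862 between Dex 1-3 and Dex 4-9, and 0.823 to 0.891 within Dex 4-9. The first principal component of the 9 Dex arrays held 23.7% of the variance and did not separate the sets: Dex 2 scored 62.66, Dex 1 29.45 and Dex 3 -16.22, between Dex 4 at 17.77 and Dex 8 at -42.52. On the second, with 16.4%, Dex 1 to 3 scored -27.57, -16.64 and -41.56, all below Dex 4-9 at -9.45 to 48.33.

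The same numbers were then compared in the groups that the choice had not used. By the count used above, numbers 1-3 against 4-9 gave 11 probes higher (0.137%) and 30 lower (0.375%) in Veh, and 8 higher (0.1%) and 30 lower (0.375%) in Con. Limma, which fitted the 18 Veh and Con arrays together, called 0 of 8001 probes in Veh and 0 in Con after Benjamini-Hochberg adjustment. At an unadjusted p under 0.05 it gave 400 probes (5%) in Veh and 289 (3.61%) in Con. A p that misses the threshold does not show that values were equal. Across probes, the Dex difference correlated with the Veh difference at r = 0.111 and with the Con difference at r = 0.0341, where probes are not independent replicates.

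The probes that separated Dex 1-3 were then read in the other groups. Of the 108 higher probes, Veh 1-3 were higher in 62 with a median difference of 0.16, and Con 1-3 in 74 with a median of 0.17. Of the 146 lower probes, Veh 1-3 were higher in 46 with a median of -0.16, and Con 1-3 in 70 with a median of -0.03. Over all 8001 probes the median difference was -0.04 in Veh and -0.02 in Con. The share of all probes that were higher was not counted, so nothing is read from these counts.

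Single genes were examined in the limma fit. Fkbp5 differed by 0.68 ± 0.55 (SE) in Veh and 1.43 ± 0.55 in Con, with adjusted p of 0.999 for both. Cyp2b10 differed the other way in Veh, by -2.35 ± 0.53, with an unadjusted p of 0.000215 and an adjusted p of 0.430. Mt2 differed by 3.43 ± 1.11 in Veh and 2.46 ± 1.11 in Con, and Mt1 by 3.30 ± 1.41 and 3.92 ± 1.41, with adjusted p from 0.652 to 0.999. Dbp differed by 3.66 ± 1.47 in Con, with an adjusted p of 0.999, opposite in sign to Dex.

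**Figure D5:**
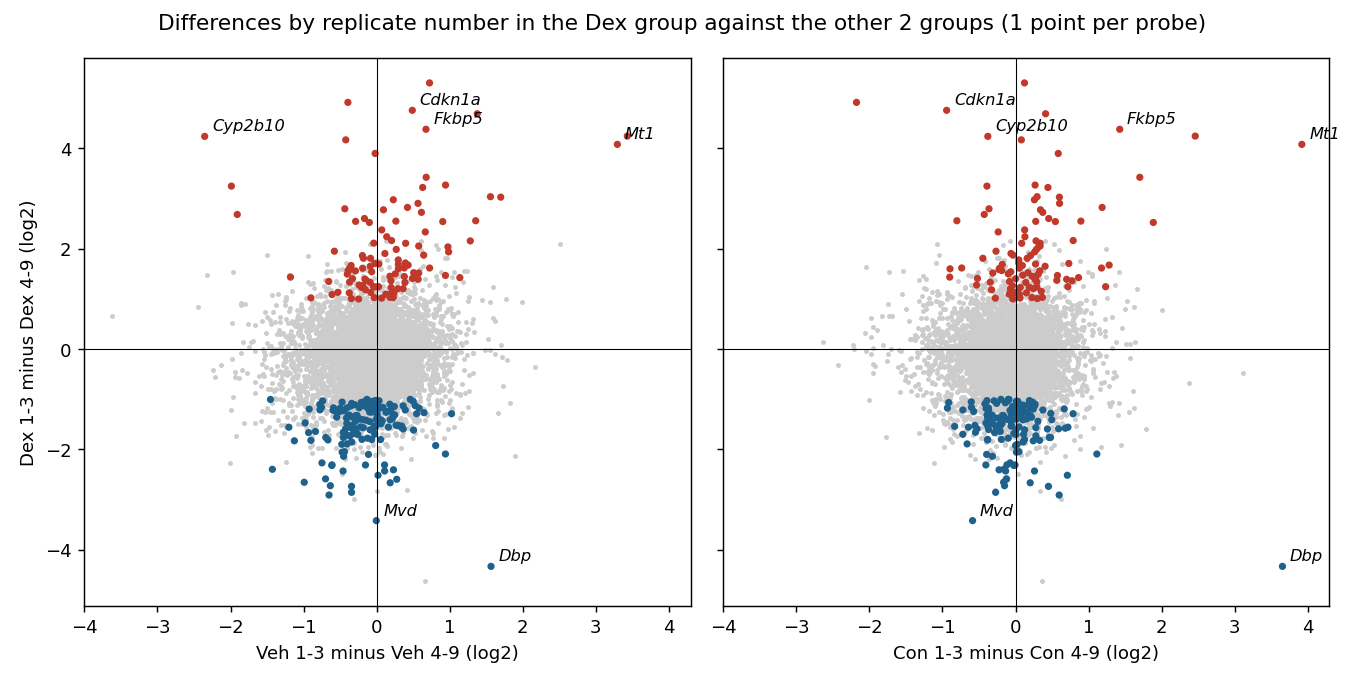
Each point is a kept probe, with its log2 difference between numbers 1-3 and 4-9 in Dex on the vertical axis and in Veh (left) or Con (right) on the horizontal axis; the 108 red and 146 blue probes separated Dex 1-3 by at least 1 without overlap. On the horizontal axes the red probes have a median of 0.16 in Veh and 0.17 in Con, and the blue ones -0.16 and -0.03. Mt1 lies to the right in both panels (3.30 in Veh, 3.92 in Con).

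Array quality measures overlapped between the Dex sets. The log2 ratio of 3' to 5' signal of beta-actin, which rises as RNA is broken down, was 0.805 ± 0.113 (SD, n = 3) in Dex 1-3 and 0.926 ± 0.186 (SD, n = 6) in Dex 4-9. That of Gapdh was 0.318 ± 0.183 and 0.196 ± 0.142. Median intensity was 23.3 and 25.4, and 10.6% and 9.28% of probes lay at the floor. In Veh the beta-actin ratio was 1.61 ± 0.335 for numbers 1-3 and 1.09 ± 0.100 for 4-9, without overlap. The two-sided exact permutation test gave p = 0.0119, the smallest that 84 splits allow, and 0.0952 after Benjamini-Hochberg adjustment over 8 tests. The other 7 adjusted values in Veh and Con were 0.667 to 0.726.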

How the data were processed

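Liver RNA of 27 mice was measured on Affymetrix arrays, and the deposited table gives the authors' linear intensity of each of 12488 probes per array. The sources used here do not name the software behind these values. Here 66 control probes were dropped, 2.6, the 10th percentile of positive values, served as a floor, and values were turned to log2 with no further scaling. GEO's annotation gave 1 symbol to 10855 probes, several to 396 and none to 1237, and 10839 probes matched the reference table (GRCm38.p6) by gene number. Of the kept probes, 845 had no single symbol.

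The 3 Dex arrays were chosen on their values, so Dex 1-3 minus Dex 4-9 has no test. Numbers 1-3 and 4-9 of Veh and Con were compared with limma 3.58.1 in R 4.3.3 (lmFit, then eBayes with trend, Benjamini-Hochberg adjusted two-sided p, threshold 0.05), tested on simulated data. Array quality measures were compared by exact permutation. P-values measure only the spread between these mice. The members and the 39 gene lists (671 genes, 438 measured) were chosen with earlier results of these data known.

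Named genes were the 4 markers, the 15 furthest above and 15 furthest below among genes without overlap, and up to 3 members of each list with the largest absolute difference. Other genes were named after their values were seen. Alternatives were quantile normalization, other floors and filters, other fits, a beta-actin ratio covariate and leaving out each array. The number of arrays limits the precision.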

Additional observations from a re-analysis of the deposited data

Results flagged for a closer look

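Among 194 named genes, 16 had 1 of the 6 Dex 4-9 arrays set apart from the other 5 by a gap that was large for the range (Dixon's ratio). Chance alone flags about 1 in 20 such groups. Of genes lower in Dex 1-3, Fst was low in Dex 5 at 3.45 (next 4.42), Adh4 in Dex 5 at 6.37 (next 7.96) and Cks1b in Dex 7 at 5.17 (next 6.08), while Krt18 was high in Dex 6 at 9.04 and Slc2a2 in Dex 4 at 10.31. Rgs16, higher in Dex 1-3, was also high in Dex 5 at 9.33 (next 7.39). Hsd3b5 was low in Dex 8 at 5.20 (next 8.46), which alone made the sets overlap. The clock repressor Cry1 was high in Dex 4 at 7.71.

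Reg1, a pancreatic secretory protein, was high in Dex 8 at 5.005, and Cela1, an elastase, was low in Dex 6 at 7.94. Ddit3, a stress-response factor, was low in Dex 7 at 1.68 (next 5.03). Slc4a1, the red cell anion exchanger, was at the floor in Dex 5 at 1.38 (next 4.78). C1qb was low in Dex 6 at 4.59, Fgb in Dex 5 at 9.92, and the respiratory chain genes Atp5k in Dex 5 at 5.26 and Ndufv1 in Dex 8 at 9.75.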

How the results depend on the processing

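Of the 254 probes (108 higher, 146 lower) that separated Dex 1-3, 189 were kept under quantile normalization, 254 and 253 under other floors and 226 to 248 when 1 array was left out, and 0 changed sign. Leaving out 1 array gave 281 to 603 in all, 109 to 186 higher and 160 to 460 lower. The total was 449 without Dex 1, 404 without Dex 2 and 603 without Dex 3. The higher count was 186 without Dex 1 and without Dex 2, and the lower count 263 without Dex 1 and 460 without Dex 3; fewer arrays overlap less often by construction. In Veh, limma called 0 probes, but 1 without a mean trend, 7 without Veh 1 and 3 without Veh 2, a range of 0 to 7. In Con it called 0, with 1 without Con 3, a range of 0 to 1, and the cause was not tested. Of 2328 recomputed differences of named genes, 2318 moved by less than the spread between replicates, 10 by more and 0 changed sign when called. Tat was 1.44, Tdo2 1.06 and Alb 0.06 after quantile normalization. No paired analysis was possible because arrays 1-3 and 4-9 of a group share no replicate number. No detection calls were used, so values near the floor are the least certain.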
